A study of Rattus norvegicus with 16 samples.

Results

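The genes described here are 41 rat genes of pyruvate entry into mitochondria, the citrate cycle, the carnitine shuttle and mitochondrial fatty acid oxidation, with the nuclear receptor Ppara and the coactivator Ppargc1a. They were chosen by name and matched to the gene column of the count table, which held 39 of them among 32623 genes. Ogdh and Eci2 had no match, so their RNA levels were not analysed here.

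The study asked how kidney tubule cells and kidney fibroblasts kept together respond to acidic medium. RNA was sequenced from 2 rat kidney cell lines, NRK-52E, labelled epithelial and derived from the proximal tubule, and NRK-49F, labelled fibroblast. The lines shared their medium in co-culture, NRK-52E on permeable filter inserts and NRK-49F in the wells beneath, so cell line and support cannot be told apart. After 24 h without serum the cells stayed for 48 h at pH 7.4 or pH 6.0, which the sample titles write as 7 and 6. The 4 groups, NRK-52E and NRK-49F at each pH, had 4 libraries each, numbered N1 to N16, all of poly(A)-enriched RNA from the same co-culture design. Nothing in the labels says whether libraries came from separate cultures, so p values measure only the spread between these libraries. The library totals ran from 16201084 to 34784862 counts. Library N8, NRK-52E at pH 6.0, stood apart from the others of its group over all genes, with a chi-square per degree of freedom of 46.4, 97.8 and 75.9 against N3, N4 and N7, where pairs among those 3 had 9.57 to 41.7. Calls that change without N8 are named below.

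Pyruvate made by glycolysis enters mitochondria through a carrier and becomes either acetyl-CoA, by pyruvate dehydrogenase, or oxaloacetate, by pyruvate carboxylase, and citrate synthase joins these products. Long-chain fatty acids enter as carnitine esters, are shortened by repeated beta oxidation to acetyl-CoA, and their electrons pass through the electron transfer flavoprotein to the respiratory chain. Proximal tubule cells in the kidney rely on fatty acid oxidation for much of their ATP, and PPAR alpha and PGC-1 alpha, the products of Ppara and Ppargc1a, are known activators of its genes.

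Levels are given in FPM (fragments per 1e6 counted fragments), after scaling between libraries by the trimmed mean of M values (TMM). FPM has no correction for transcript length, so levels are compared between libraries. Sums over lists and remarks on low levels refer to counted fragments and not to numbers of transcripts. FPM is a share of the scaled library, so fewer cells that express a gene and less of its RNA per cell cannot be told apart. A gene was called where the false discovery rate was below 0.01 in both edgeR and DESeq2. Both were fitted on the whole table after genes with few or no counts were removed, and not on the members alone. Log2 fold changes, their standard errors (SE) and adjusted p values are those of edgeR.

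The cell type labels were checked against marker lists, and the defining epithelial markers were at or near 0 in NRK-52E cells. Epcam, Krt18, Cldn3 and Cldn7 had means of at most 0.136 FPM in each group, and Cdh1 had a mean of 1.62 FPM in NRK-52E at pH 7.4. Cdh1 had no count in NRK-49F at pH 7.4 and was called higher in NRK-52E there, while Krt8 was called higher in NRK-49F. Krt8 made up most of the summed FPM of the 7 epithelial markers, at 430 ± 32 FPM (SD, n = 4) in NRK-52E and 848 ± 70.4 FPM in NRK-49F at pH 7.4. The proximal tubule marker Slc34a1 had no count in NRK-52E, and Lrp2 had a mean of 0.634 FPM there at pH 7.4, while Aqp1 and Anpep of the same list had means of 34.4 and 28.5 FPM. At pH 7.4 Aqp1 was called higher in NRK-52E, and Cubn and Ggt1 were called higher in NRK-49F. Of the 10 fibroblast markers, 7 were called higher in NRK-49F at pH 7.4 and 1, Col3a1, was called higher in NRK-52E. At pH 7.4 Pdgfra had means of 392 FPM in NRK-49F and 0.286 FPM in NRK-52E, Col1a1 had 6210 and 23.6 FPM, and Col3a1 had 458 and 6220 FPM. Thy1 had no count in any library. The lines are therefore called by name below.

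The summed level of the marker lists moved with pH. The epithelial list summed to 465.3, 431.7, 391.8 and 449.9 FPM in the NRK-52E libraries at pH 7.4 and to 353.9, 293.1, 321.3 and 299.1 FPM at pH 6.0. The fibroblast list summed to 7299, 7162, 6912 and 6862 FPM in NRK-52E at pH 7.4 and to 3578, 3361, 2883 and 2270 FPM at pH 6.0. Of these sums, Col3a1 alone had means of 6220 FPM at pH 7.4 and 2630 FPM at pH 6.0. Both sums were lower in each acid library than in each control library, as they were in NRK-49F. There the epithelial list summed to 824.1, 785.2, 948.8 and 842.1 FPM at pH 7.4 and to 206.4, 220.2, 203.4 and 199.4 FPM at pH 6.0. The fibroblast list summed there to 15730, 16190, 17430 and 17170 FPM at pH 7.4 and to 12400, 12110, 12650 and 11010 FPM at pH 6.0. Its members differed in direction. Vim fell, from a mean of 7110 to 2590 FPM, and S100a4 fell, from 2250 to 628 FPM. Col1a1 lay the other way, with means of 6210 FPM at pH 7.4 and 8290 FPM at pH 6.0, and was not called. The 8 proximal tubule markers summed to 56.25 to 74.87 FPM and 25.9 to 36.86 FPM in NRK-52E at pH 7.4 and pH 6.0, whereas in NRK-49F they summed to 158.6, 141.5, 175.6 and 195.4 FPM at pH 7.4 and to 363.9, 389.2, 560.4 and 557.2 FPM at pH 6.0. In NRK-49F Ggt1 rose, from a mean of 112 to 413 FPM, while Anpep fell, from 30.1 to 10.9 FPM, and Slc5a2 fell, from 0.978 to 0.105 FPM. The part of these shifts in the results below was not tested. Pdgfra had a mean of 0.0561 FPM in NRK-52E at pH 6.0, where NRK-49F held 368 FPM.

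In NRK-52E cells acidic medium was accompanied by higher RNA of 16 members and lower RNA of 5. The 21 called members were 55.3% of the 38 tested, and 56.7% of all 13735 genes tested were called. By direction, 28.2% of all genes rose and 28.5% fell. The share called among members in both directions together was therefore near the background, whereas by direction 16 of 38 rose and 5 of 38 fell. The median log2 fold change of the members was 0.22 and that of all genes was 0, with members ranging from -1.43 for Cpt1a to 1.95 for Pc. The direction counts depended on scaling. TMM factors were 1.15 to 1.23 at pH 7.4 and 0.971 to 1.04 at pH 6.0 in NRK-52E, and with library totals alone the median of all genes moved to -0.21 and the counts became 10 higher and 8 lower. The median of the members was then 0, still 0.21 above the median of all genes. Without N8, an NRK-52E library at pH 6.0, the counts were 16 higher and 8 lower, and 64% of all genes were called.

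In NRK-49F cells 14 of 39 members were called, 9 higher and 5 lower at pH 6.0. That was 35.9%, and 37.8% of all 13339 genes tested were called, 18.4% higher and 19.4% lower, so this share too was near the background. The median log2 fold change was 0.1 for the members and 0 for all genes, and members ranged from -0.82 for Ppargc1a, which was not called, to 0.89 for Hadha.

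Across the lines, 9 members were called in both, 42.9% of the NRK-52E calls and 64.3% of the NRK-49F calls, and over all genes 2962 were called in both, 38% and 58.8% of the calls of each line, so the members' shares were near the background. Pdha1, Pdhb, Dlat, Cs, Acadl and Etfa rose in both, Cpt1a fell in both, and Mpc2 and Cpt1c rose in NRK-52E and fell in NRK-49F. A further 12 members were called in NRK-52E alone and 5 in NRK-49F alone, where over all genes 62% and 41.2% of the calls were in that line alone. This by itself shows no difference between the lines. That difference was tested as an interaction of line and pH over all 16 libraries, at a false discovery rate below 0.01 in edgeR. It was called for 14 of 39 members, 35.9%, and for 37.0% of the 14679 genes tested. The pH effect was more positive in NRK-52E for 9 members and in NRK-49F for 5, and over all genes these shares were 19.4% and 17.6%. With library totals the median interaction of all genes moved from -0.01 to -0.25 and the member counts became 8 and 12. Without N8 they were 9 and 9, with calls gained by Dlat, Mdh1, Hadh and Etfb.

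**Figure D1:**
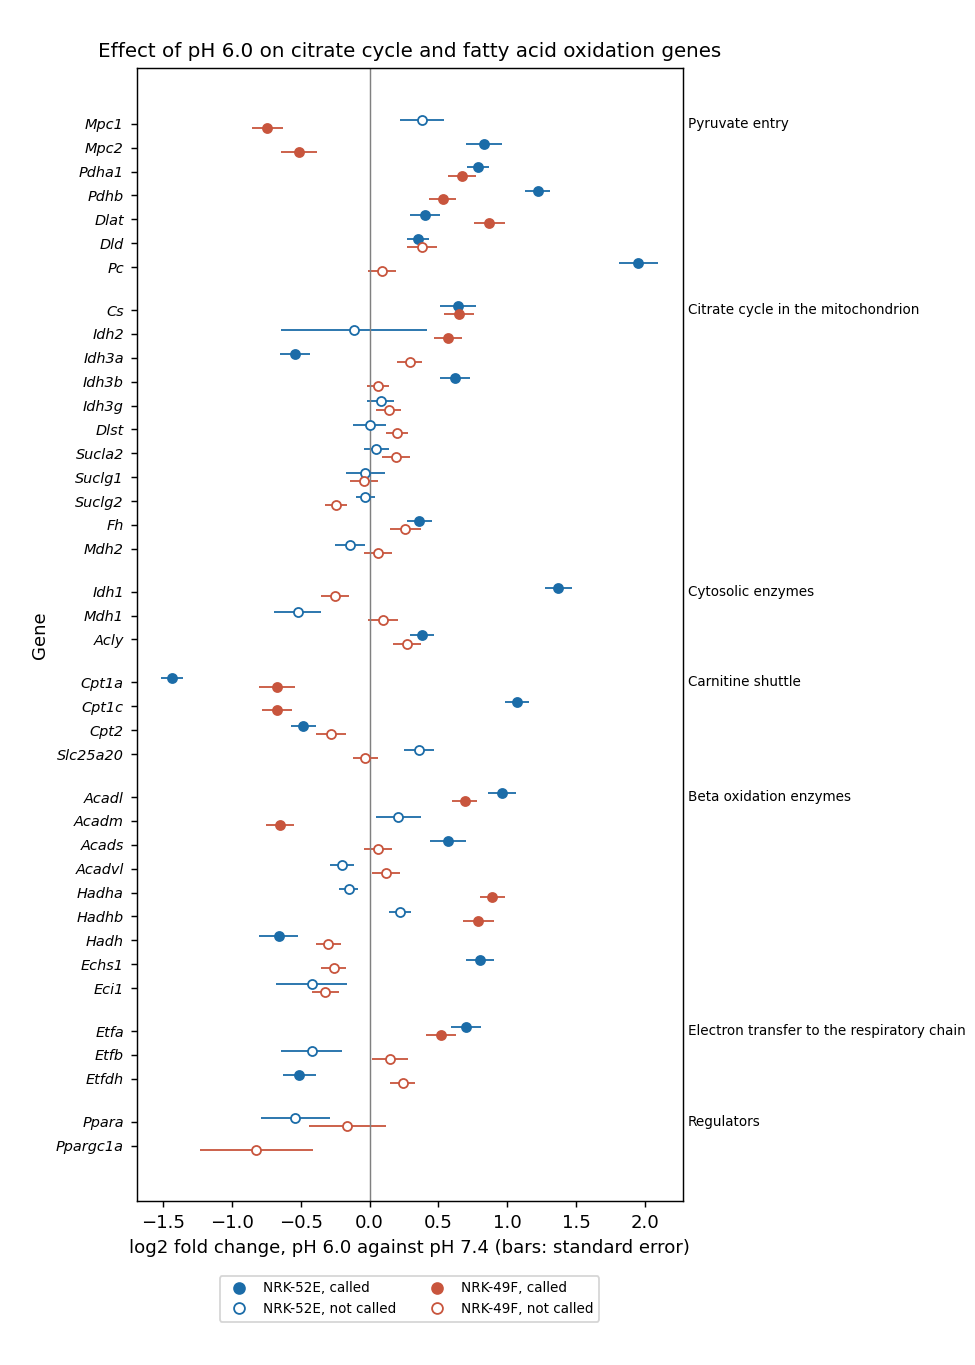
Log2 fold change at pH 6.0 against pH 7.4 of each member in NRK-52E and NRK-49F cells, grouped by role, with bars of 1 SE and filled points for called members (4 libraries per group). Pc reached 1.95 in NRK-52E but 0.09 in NRK-49F, and Mpc2 and Cpt1c lay on opposite sides of 0.

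In pyruvate entry, 6 of 7 members rose in NRK-52E, beside 28.2% of all genes, and none fell. With library totals Dlat and Dld lost their calls, which left 4 of 7. In NRK-49F 3 members rose and 2 fell, beside 18.4% and 19.4% of all genes. Pc encodes pyruvate carboxylase, which refills the citrate cycle with oxaloacetate and also serves gluconeogenesis. Its levels in NRK-52E were 13.4, 12.6, 13.3 and 13.6 FPM in libraries N1, N2, N5 and N6 at pH 7.4, and 43.6, 66.1, 54.9 and 42.9 FPM in N3, N4, N7 and N8 at pH 6.0. The acid libraries were all above the control libraries, which lay close together. The log2 fold change was 1.95 (SE 0.14, adjusted p = 8.63e-07). In NRK-49F Pc stood at 58.6, 54.3, 52.1 and 63.8 FPM in N9, N10, N13 and N14 at pH 7.4 and at 56.7, 54.7, 67.4 and 66.5 FPM in N11, N12, N15 and N16 at pH 6.0. These groups overlapped, the log2 fold change was 0.09 (SE 0.1, adjusted p = 0.484), and the interaction was 1.85 (SE 0.18, adjusted p = 1.99e-07). At pH 6.0 the NRK-52E and NRK-49F levels of Pc overlapped, whereas at pH 7.4 each NRK-52E library was below each NRK-49F library. Values below follow the same order of libraries.

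Pyruvate dehydrogenase converts pyruvate to acetyl-CoA, and Pdhb encodes the beta subunit of its decarboxylase. Pdhb levels in NRK-52E were 81.9, 75.1, 66.2 and 73 FPM at pH 7.4 and 180, 160, 173 and 186 FPM at pH 6.0. In NRK-49F they were 73.7, 65.9, 82.5 and 68 FPM at pH 7.4 and 99.8, 108, 103 and 113 FPM at pH 6.0. Both lines had all acid libraries above all control libraries, with a wider gap in NRK-52E. The log2 fold change was 1.22 (SE 0.09, adjusted p = 1.21e-06) in NRK-52E, 0.53 (SE 0.1, adjusted p = 0.000608) in NRK-49F, and the interaction was 0.67 (SE 0.13, adjusted p = 0.000317). Pdha1, the alpha subunit, rose by 0.79 and 0.67 on the log2 scale in NRK-52E and NRK-49F, with an interaction of 0.11 that was not called. Dlat, the acetyltransferase of the complex, rose by 0.4 in NRK-52E and by 0.87 in NRK-49F. Its interaction was not called. It was called with DESeq2 alone, library totals, a false discovery rate of 0.05, the second number of the column names as a covariate, and without N8 or N16. In NRK-52E the Dlat call was lost with library totals, with no filter on low counts, with the second number of the column names as a covariate, and without any of N1, N2, N4, N5, N6 or N7. Dld, the dihydrolipoyl dehydrogenase, rose by 0.35 in NRK-52E, a call that was lost with library totals and without N2, and stood at 0.38 in NRK-49F with an adjusted p of 0.0114. The latter was called with DESeq2 alone, DESeq2 size factors, library totals, a joint fit of 16 libraries, either other filter, a false discovery rate of 0.05, and without N13.

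Mpc1 and Mpc2 encode the subunits of the mitochondrial pyruvate carrier. Mpc2 levels in NRK-52E were 46.1, 38.2, 33.6 and 44.4 FPM at pH 7.4 and 75.5, 65, 65.9 and 84.9 FPM at pH 6.0. In NRK-49F they were 68.1, 70.1, 97.9 and 70.3 FPM at pH 7.4 and 49.1, 54.8, 58 and 55.9 FPM at pH 6.0. The groups did not overlap in either line and lay in opposite orders, and N13 was above the other NRK-49F controls. Mpc2 rose by 0.83 (SE 0.13, adjusted p = 0.000241) in NRK-52E and fell by 0.51 (SE 0.13, adjusted p = 0.0049) in NRK-49F on the log2 scale. The interaction was 1.32 (SE 0.19, adjusted p = 1.46e-05), whereas the NRK-49F call was lost without N11, N12 or N15. Mpc1 fell by 0.74 (adjusted p = 0.000128) in NRK-49F and stood at 0.38 (adjusted p = 0.0497, not called) in NRK-52E, with an interaction of 1.11 (adjusted p = 0.000107). Every member above whose groups did not overlap had an exact two-sided permutation p of 0.0286, the smallest that 4 libraries against 4 allow.

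Within the mitochondrial citrate cycle, 3 of 11 members rose and 1 fell in NRK-52E, beside 28.2% and 28.5% of all genes, and 2 rose in NRK-49F, beside 18.4% of all genes. Cs encodes citrate synthase, which joins acetyl-CoA and oxaloacetate. Its levels in NRK-52E were 92.5, 89.2, 81.5 and 85.6 FPM at pH 7.4 and 135, 162, 158 and 98.6 FPM at pH 6.0, and in NRK-49F 81.3, 70.5, 58.3 and 81.3 FPM at pH 7.4 and 121, 106, 114 and 120 FPM at pH 6.0. The acid libraries were above the control libraries in both lines, and in NRK-52E N8 lay nearer to the controls than N3, N4 and N7 did. Cs rose by 0.64 (SE 0.13, adjusted p = 0.00135) in NRK-52E, a call lost with library totals, and by 0.65 (SE 0.11, adjusted p = 0.000321) in NRK-49F. The interaction was -0.02 (SE 0.19, adjusted p = 0.969).

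Isocitrate dehydrogenases oxidise isocitrate to 2-oxoglutarate, Idh2 with NADP and the Idh3 complex with NAD. Idh2 stood out by level and was chosen after its values were seen. NRK-52E held 0.141, 0.533, 0.663 and 0.762 FPM of Idh2 at pH 7.4 and 0.55, 0.719, 0.574 and 0.141 FPM at pH 6.0, from 3 to 16 counts per library. NRK-49F held 123, 117, 149 and 111 FPM at pH 7.4 and 175, 189, 196 and 189 FPM at pH 6.0. Idh2 was thus near the floor of detection in each NRK-52E library, and in NRK-49F its acid libraries were all above its controls. The log2 difference of NRK-52E from NRK-49F was -7.79 (SE 0.24, adjusted p = 1.06e-10) at pH 7.4 and -8.56 (SE 0.24, adjusted p = 5.29e-11) at pH 6.0. In NRK-49F Idh2 rose by 0.57 (SE 0.1, adjusted p = 0.000653) on the log2 scale. The NRK-52E estimate was -0.11 (SE 0.53), and with so few counts its interaction of -0.69 was not called (adjusted p = 0.185).

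Among the Idh3 subunits, Idh3a fell by 0.54 (adjusted p = 0.00124) and Idh3b rose by 0.62 (adjusted p = 0.000456) in NRK-52E, while Idh3g was called in neither line. Both subunits passed the interaction test, with -0.85 (adjusted p = 4.22e-05) for Idh3a and 0.55 (adjusted p = 0.00207) for Idh3b. The Idh3b interaction was lost with library totals and without N3. Fh, the fumarate hydratase, rose by 0.36 in NRK-52E, a call that was lost with library totals, with no filter on low counts and without N2, N5, N6 or N7. Dlst, Sucla2, Suclg1, Suclg2 and Mdh2, which act in the steps around succinyl-CoA and at malate, were called in neither line.

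Of the cytosolic enzymes, 2 of 3 rose in NRK-52E, beside 28.2% of all genes. In NRK-49F 0 of 3 were called by edgeR and DESeq2 together and 0 by DESeq2 alone, and 2 were under 0.05 before adjustment in edgeR. Idh1 encodes the cytosolic and peroxisomal isocitrate dehydrogenase, a source of NADPH. NRK-52E libraries held 76.2, 80, 70.3 and 83 FPM of Idh1 at pH 7.4 and 182, 183, 224 and 219 FPM at pH 6.0. NRK-49F libraries held 131, 115, 130 and 113 FPM at pH 7.4 and 108, 113, 104 and 90.5 FPM at pH 6.0. In NRK-52E each acid library was far above each control, and in NRK-49F the acid libraries lay just below the controls. The log2 fold change was 1.37 (SE 0.1, adjusted p = 1.07e-06) in NRK-52E and -0.25 (SE 0.1, adjusted p = 0.0478, not called) in NRK-49F. The interaction was 1.61 (SE 0.14, adjusted p = 5.88e-08).

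Acly encodes ATP citrate lyase, which splits exported citrate to cytosolic acetyl-CoA for lipid synthesis. Acly levels in NRK-52E were 203, 234, 203 and 202 FPM at pH 7.4 and 245, 288, 315 and 267 FPM at pH 6.0. In NRK-49F they were 166, 164, 161 and 194 FPM at pH 7.4 and 230, 190, 221 and 194 FPM at pH 6.0. Acid and control libraries were separate in NRK-52E and overlapped in NRK-49F. Acly rose by 0.38 (SE 0.09, adjusted p = 0.00403) in NRK-52E, a call lost with library totals and without N1, N4, N5, N6 or N7. In NRK-49F the log2 fold change was 0.27 (SE 0.1, adjusted p = 0.0305, not called), and the interaction was 0.1 (adjusted p = 0.58). Mdh1, the cytosolic malate dehydrogenase, was called in neither line and had a log2 fold change of -0.52 (adjusted p = 0.0188) in NRK-52E, which was called without N8, with library totals, in a joint fit of 16 libraries, at a false discovery rate of 0.05 and with number 21 alone.

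In the carnitine shuttle, Cpt1a had the lowest log2 fold change of all members in NRK-52E. Cpt1a encodes the outer membrane carnitine palmitoyltransferase, the controlled entry step of long-chain fatty acids. Its levels in NRK-52E were 265, 280, 283 and 281 FPM at pH 7.4 and 104, 112, 103 and 98.7 FPM at pH 6.0. In NRK-49F they were 389, 377, 323 and 403 FPM at pH 7.4 and 210, 193, 238 and 309 FPM at pH 6.0. The acid libraries were below the controls in both lines, tightly grouped in NRK-52E and with N16 nearest to the controls in NRK-49F. Cpt1a fell by 1.43 (SE 0.08, adjusted p = 1.63e-07) in NRK-52E and fell by 0.67 (SE 0.13, adjusted p = 0.00129) in NRK-49F on the log2 scale. The interaction was -0.77 (SE 0.17, adjusted p = 0.000858).

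Cpt1c encodes a relative of Cpt1a best known from neurons, with little transferase activity. NRK-52E libraries held 41.4, 37.3, 41.3 and 38.8 FPM of Cpt1c at pH 7.4 and 85.2, 78.6, 92.3 and 82.2 FPM at pH 6.0. NRK-49F libraries held 54.9, 57.6, 57 and 65 FPM at pH 7.4 and 42.9, 33.1, 38.7 and 33.6 FPM at pH 6.0. No groups overlapped within a line, and the order of acid and control was opposite in the lines. Cpt1c rose by 1.07 (SE 0.09, adjusted p = 1.98e-06) in NRK-52E, fell by 0.67 (SE 0.11, adjusted p = 0.000241) in NRK-49F, and had an interaction of 1.73 (SE 0.14, adjusted p = 2.91e-08). Cpt2, the inner membrane transferase, fell by 0.48 in NRK-52E and stood at -0.28 (not called) in NRK-49F. Slc25a20, the carnitine-acylcarnitine carrier, was called in neither line. In NRK-52E it was called as higher with DESeq2 alone, in a joint fit of 16 libraries and at a false discovery rate of 0.05.

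**Figure D2:**
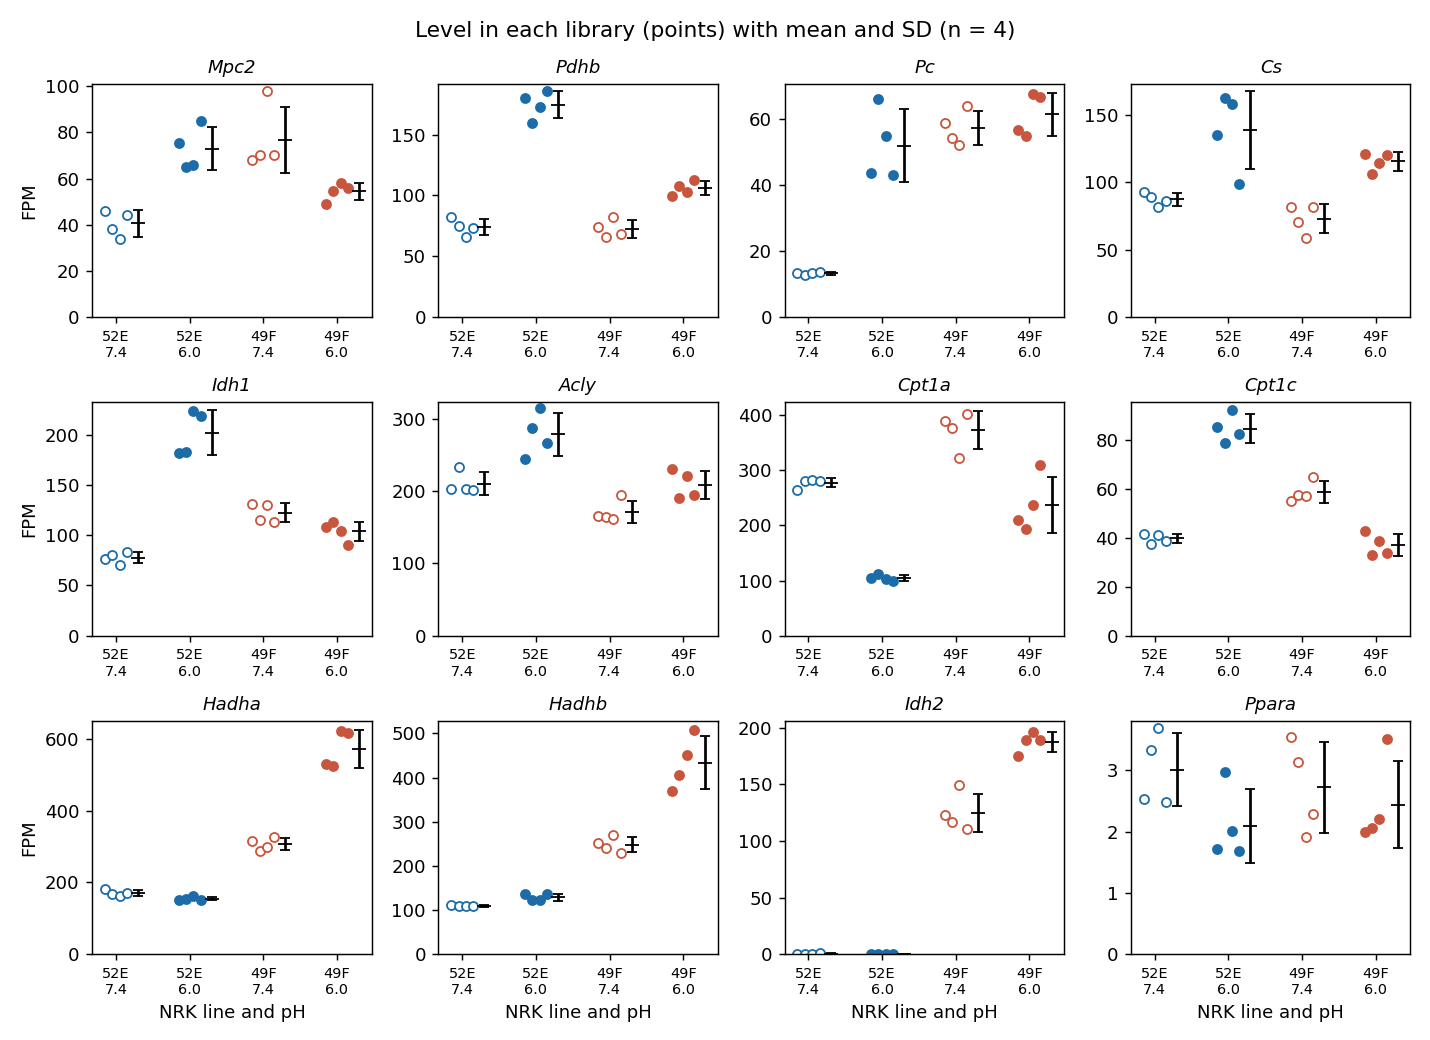
Level in FPM of members in each of the 16 libraries, by cell line and pH, with 1 point per library and a bar at the mean of 4. Pc in NRK-52E lay between 12.6 and 13.6 FPM at pH 7.4 and between 42.9 and 66.1 FPM at pH 6.0, and Cpt1a moved the other way.

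Beta oxidation enzymes were called in both directions, 3 of 9 higher and 1 lower in each line. Over all genes 28.2% were higher and 28.5% lower in NRK-52E, and 18.4% were higher and 19.4% lower in NRK-49F. With library totals NRK-52E had 2 higher and 3 lower, since Acads lost its call and Acadvl and Hadha were called as lower. Hadha and Hadhb encode the alpha and beta subunits of the mitochondrial trifunctional protein, which carries out the later steps for long chains, and both were chosen after their values were seen. Hadha levels in NRK-52E were 183, 167, 161 and 170 FPM at pH 7.4 and 152, 154, 163 and 152 FPM at pH 6.0. In NRK-49F they were 314, 287, 298 and 327 FPM at pH 7.4 and 528, 525, 621 and 615 FPM at pH 6.0. The NRK-52E groups overlapped, and in NRK-49F all acid libraries were above all controls. Hadha rose by 0.89 (SE 0.09, adjusted p = 9.85e-06) in NRK-49F, stood at -0.15 (SE 0.07, adjusted p = 0.0894; called as lower with library totals) in NRK-52E, and had an interaction of -1.05 (SE 0.12, adjusted p = 1.14e-06).

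Hadhb showed the same order of groups in NRK-49F. Its levels there were 252, 241, 269 and 230 FPM at pH 7.4 and 370, 406, 452 and 508 FPM at pH 6.0. In NRK-52E Hadhb stood at 112, 109, 109 and 109 FPM at pH 7.4 and at 137, 123, 122 and 136 FPM at pH 6.0. The groups did not overlap in either line, though the NRK-52E difference was small and was not called. The log2 fold change was 0.79 (SE 0.11, adjusted p = 8.24e-05) in NRK-49F and 0.22 (SE 0.08, adjusted p = 0.0297) in NRK-52E, with an interaction of -0.58 (SE 0.13, adjusted p = 0.00152).

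The acyl-CoA dehydrogenases, which start each round of beta oxidation on chains of different length, differed among themselves. Acadl, for long chains, rose by 0.96 in NRK-52E and by 0.69 in NRK-49F. Acadm, for medium chains, fell by 0.65 (adjusted p = 0.000135) in NRK-49F, stood at 0.21 (not called) in NRK-52E, and had an interaction of 0.85 (adjusted p = 0.000926). Acads, for short chains, rose by 0.57 in NRK-52E, a call lost with library totals and without N5, and Acadvl, for very long chains, was called in neither line other than with library totals in NRK-52E. Echs1, the enoyl-CoA hydratase, rose by 0.8 (adjusted p = 4.77e-05) in NRK-52E and stood at -0.26 (not called) in NRK-49F, with an interaction of 1.04 (adjusted p = 4.43e-06). Hadh, the hydroxyacyl-CoA dehydrogenase for shorter chains, fell by 0.66 in NRK-52E and stood at -0.3 (not called) in NRK-49F. The latter was called with DESeq2 alone, at a false discovery rate of 0.05 and without N16. Eci1, an isomerase for unsaturated chains, was called in neither line. It was called as lower in NRK-52E without N8 and with number 21 alone, and in NRK-49F without N9 and at a false discovery rate of 0.05.

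Among the 3 genes of electron transfer from beta oxidation, Etfa rose in both lines, by 0.7 in NRK-52E and by 0.52 in NRK-49F. It encodes the alpha subunit of the electron transfer flavoprotein. Etfb, the beta subunit, was called in neither line, and in NRK-52E it was called as lower without N8 and with number 21 alone. Etfdh, which passes the electrons to ubiquinone, fell by 0.51 (adjusted p = 0.00231) in NRK-52E and stood at 0.24 (not called) in NRK-49F, with an interaction of -0.77 (adjusted p = 0.000203).

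The regulators had low levels. Ppara stood at 2.53, 3.32, 3.69 and 2.48 FPM at pH 7.4 and 1.71, 2.97, 2.01 and 1.69 FPM at pH 6.0 in NRK-52E. In NRK-49F it stood at 3.54, 3.13, 1.91 and 2.29 FPM at pH 7.4 and 1.99, 2.06, 2.21 and 3.5 FPM at pH 6.0. The groups overlapped in both lines, with log2 fold changes of -0.54 (SE 0.25, adjusted p = 0.0759) and -0.16 (SE 0.28, adjusted p = 0.652). Ppara had 28 to 112 counts per library. Ppargc1a had no count in any of the 8 NRK-52E libraries. In NRK-49F it had 0.857, 0.859, 0.724 and 0.514 FPM at pH 7.4 and 0.398, 0.265, 0.26 and 0.688 FPM at pH 6.0, from 4 to 22 counts. Against a floor of 3 counts in each NRK-52E library, Ppargc1a was at least 5.57-fold higher in NRK-49F at pH 7.4 and at least 2.77-fold higher at pH 6.0, counting error only. Its pH groups in NRK-49F overlapped and the log2 fold change was -0.82 (SE 0.41, adjusted p = 0.113).

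The lines were also compared at each pH, which shares libraries with the comparisons above. At pH 7.4, 29 of 38 members were called, 76.3%, and 66.6% of all 14026 genes tested were called. Of the members 9 were higher in NRK-52E and 20 were higher in NRK-49F, and over all genes these shares were 33.3% and 33.3%. The median log2 difference of NRK-52E from NRK-49F was -0.29 for members and 0.03 for all genes. With library totals the median of all genes was 0.34, the members' median was 0.01, which lay -0.32 from it as before, and the member counts were 14 and 12. At pH 6.0, 24 of 38 members were called, 63.2%, 9 of them higher in NRK-52E and 15 higher in NRK-49F. Of all 13796 genes tested at pH 6.0, 59.8% were called, 28.6% higher in NRK-52E and 31.3% higher in NRK-49F. The medians were -0.23 for members and -0.03 for all genes. With library totals at pH 6.0 the median of all genes was 0.12 and 12 members were higher in each line. Without N8 Cs and Mdh1 were called as well at pH 6.0.

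Among the members, beta oxidation enzymes made up 9 of the calls between lines at pH 7.4. Of these, 8 were higher in NRK-49F and Echs1 was higher in NRK-52E. Over all genes 66.6% were called at pH 7.4, and 33.3% were higher in NRK-49F. At pH 6.0, 7 of 9 were called, 6 of them higher in NRK-49F, beside 59.8% and 31.3% of all genes. Another 7 mitochondrial beta oxidation genes, outside the members, lay mostly the other way at pH 7.4. There 4 were higher in NRK-52E (Acad10, Acad11, Acadsb and Decr1) and 1, Acaa2, in NRK-49F, beside 33.3% and 33.3% of all genes. At pH 6.0, 1 of the 7 was higher in NRK-52E and 3 in NRK-49F, beside 28.6% and 31.3%. With library totals at pH 7.4 Acadvl and Hadh turned to 0.02 and 0.07 and were not called, and the Acadm call was lost. The Acadvl call was also lost without N2, N5, N6, N9, N13 or N14, and the Hadh call with no filter on low counts and without N1, N2, N5, N9, N10 or N13. Hadha and Hadhb differed by -0.77 and -1.1 at pH 7.4 and by -1.9 and -1.76 at pH 6.0 on the log2 scale. Acadl differed by -1.34 and -1.16, and Eci1 by -1.42 and -1.62. Echs1, at 0.47 and 1.44, lay on the other side. In pyruvate entry, Pdha1 was higher in NRK-52E at both pH values, by 1.83 and 1.86. Idh1, Cpt1c and Mpc2 were lower in NRK-52E at pH 7.4, at -0.58, -0.48 and -0.83, and higher there at pH 6.0, at 0.95, 1.17 and 0.4. The Cpt1c call at pH 7.4 was lost with library totals, and the Mpc2 call at pH 6.0 was lost with no filter on low counts and without N3, N8, N11, N12, N15 or N16.

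**Figure D3:**
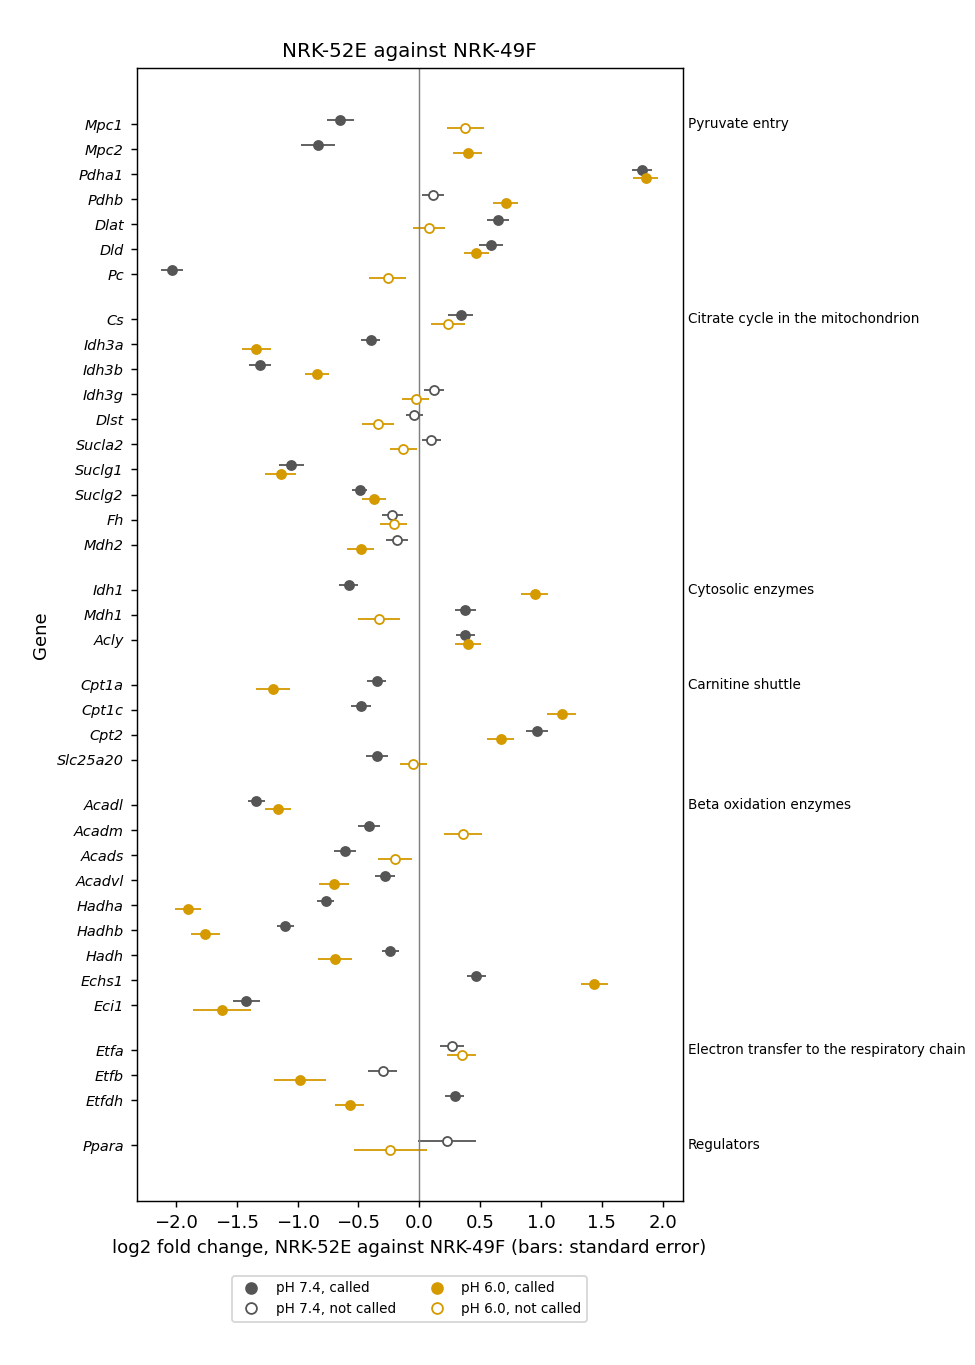
Log2 difference of NRK-52E from NRK-49F for each member at pH 7.4 and at pH 6.0, with bars of 1 SE and filled points for called members (4 libraries per group). Most beta oxidation enzymes among the members lie to the NRK-49F side under TMM scaling. With library totals Acadvl and Hadh turn at pH 7.4. Idh2, at -7.79 and -8.56, and Ppargc1a, with no count in NRK-52E, are not drawn.

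A list of 71 other genes of the same pathways was read in the same way, of which 70 were in the table and Cd36 was not analysed here. In NRK-52E 35 of 63 tested were called, 55.6%, with 20 higher and 15 lower, and in NRK-49F 21 of 57 were called, 36.8%, with 12 higher and 9 lower. The interaction was called for 25 of 63. These shares too were near those of all genes. Pck1 and Slc27a2 had no count in any library.

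Pyruvate dehydrogenase kinases switch the dehydrogenase off by phosphorylation, and they did not move together. In NRK-52E Pdk4 rose by 2.07 (SE 0.31, adjusted p = 0.000152), from a mean of 4.54 to 19.4 FPM, Pdk1 rose by 0.48, Pdk2 fell by 1.8 (SE 0.13, adjusted p = 1.04e-06), and Pdk3 fell by 0.77. The Pdk1 call in NRK-52E was lost with library totals, with no filter on low counts and without N1, N2, N3, N4, N5 or N6, and the Pdk3 call without N3 or N7. In NRK-49F Pdk1 rose by 1.13 (SE 0.12, adjusted p = 9.1e-06), Pdk2 and Pdk3 were not called at -0.05 and 0.22, and Pdk4 was near 0 and not tested. The interaction was called for Pdk1, at -0.66, for Pdk2, at -1.77, and for Pdk3, at -1.01. Pdpr, a regulator of the opposing phosphatase, rose by 1.51 in NRK-49F.

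Around the citrate cycle, Sdha, a subunit of succinate dehydrogenase, rose by 0.53 in NRK-52E and by 0.46 in NRK-49F. The malic enzymes moved apart, with cytosolic Me1 higher by 1.75 in NRK-52E and by 0.77 in NRK-49F, whereas mitochondrial Me2 fell by 1.63 in NRK-52E and fell by 0.95 in NRK-49F. Ogdhl, a relative of Ogdh, fell by 1.69 in NRK-52E and fell by 0.56 in NRK-49F.

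In fatty acid handling, Acsl5, an acyl-CoA synthetase, rose by 1.42 in NRK-52E, and stood at -0.19 (not called) in NRK-49F. Slc22a5, a carnitine transporter, fell by 0.72 in NRK-49F and rose by 0.42 in NRK-52E, with an interaction of 1.12 (adjusted p = 1.12e-05). Its NRK-52E call was lost with library totals, with no filter on low counts, with the second number as a covariate and without any NRK-52E library except N8. Cpt1b, the muscle form of the outer membrane transferase, fell by 0.99 in NRK-52E and fell by 2.44 in NRK-49F, with means of 13.7 and 5.34 FPM at pH 7.4. Acaca and Acacb make malonyl-CoA, the inhibitor of the transferase, and neither was called; Acaca stood at -0.75 and 0.65 in NRK-52E and NRK-49F with an interaction of -1.4 (adjusted p = 0.00502) that was lost without N2 or N11. In NRK-52E Acaca was called as lower with library totals, with no filter on low counts and without N4. Acacb had means below 1 FPM. The acyl-CoA dehydrogenase family gave Acadsb, which fell by 1.79 in NRK-52E, and Acad10, which fell by 1.29 in NRK-52E and fell by 0.88 in NRK-49F. Acad11 rose by 1.19 in NRK-49F and fell by 0.44 in NRK-52E, with an interaction of -1.64 (adjusted p = 6.49e-07). Its NRK-52E call was lost when N1, N2, N3, N4, N5 or N6 was left out. Acaa2, a mitochondrial thiolase of beta oxidation, was called in neither line.

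Ppard, a nuclear receptor related to Ppara, rose by 1.05 in NRK-52E and by 0.53 in NRK-49F. Esrra, the estrogen-related receptor alpha, rose by 1.59 in NRK-52E and stood at -0.07 in NRK-49F, with an interaction of 1.65 (adjusted p = 7.2e-06). Plin2, a lipid droplet protein known as a target of PPAR receptors, rose by 0.81 in NRK-52E and by 1.19 in NRK-49F.

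Promoter sequences from RefSeq, build GRCr8, were matched for 37 of the 41 members, each covering 250 bases before and 50 bases after the gene start. Pc, Idh3a, Cpt1c and Acadl had none. On either strand the core of the antioxidant response element, TGACNNNGC, was found in 9 of the 37 and in 12.1% of 33469 promoters. The CCAAT box, CCAAT, was in 17 and in 37.5% of all promoters, the E-box, CACGTG, in 2 and in 6.42%, and the C/EBP-ATF response element, TGATGCAA, in 1 and in 0.795%. The NRF1 motif was in 5 and in 4.25% of all promoters. Motifs of ERR, TCAAGGTCA (0.433% of all promoters), of PPAR (direct repeat, 0.0538%) and of the sterol response element (0.125%) were in none of the members' windows. A match describes letters and shows no binding.

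Hadha and Hadhb, which rose together in NRK-49F, lie head to head on chromosome 6 with 243 bases between the annotated genes. The stretch between them is printed for that reason, on the plus strand at chr6:31907558-31907800. Pdha1 and Pdhb, the decarboxylase subunits, which like Dlat rose in both lines, are shown by the 250 bases before their starts, on the plus strand at chrX:38508908-38509157 and chr15:19182539-19182788. Idh2, near 0 in NRK-52E, is shown from the minus strand at chr1:143467249-143467498. Capitals mark, in Pdhb, a core of the antioxidant response element and 2 E-boxes, and in Idh2 a CCAAT box, and the other stretches printed hold none of the motifs searched. The full window of Pdha1 holds a core of the antioxidant response element, and that of Hadha holds a CCAAT box. Both matches lie outside the printed stretches.
between Hadhb and Hadha: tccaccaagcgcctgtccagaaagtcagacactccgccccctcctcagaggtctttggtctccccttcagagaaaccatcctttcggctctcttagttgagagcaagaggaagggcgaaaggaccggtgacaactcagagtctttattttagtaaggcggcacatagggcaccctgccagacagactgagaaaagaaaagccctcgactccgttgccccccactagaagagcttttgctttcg
Pdha1: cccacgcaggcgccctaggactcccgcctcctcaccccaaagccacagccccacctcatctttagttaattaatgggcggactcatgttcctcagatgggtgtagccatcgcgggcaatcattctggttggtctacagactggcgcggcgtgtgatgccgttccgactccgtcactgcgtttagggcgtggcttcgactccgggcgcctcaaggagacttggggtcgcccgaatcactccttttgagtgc
Pdhb: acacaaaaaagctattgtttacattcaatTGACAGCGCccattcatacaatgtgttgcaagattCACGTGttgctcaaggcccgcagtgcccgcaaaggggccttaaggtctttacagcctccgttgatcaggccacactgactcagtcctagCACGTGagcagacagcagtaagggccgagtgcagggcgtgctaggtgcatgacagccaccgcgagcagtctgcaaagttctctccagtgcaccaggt
Idh2: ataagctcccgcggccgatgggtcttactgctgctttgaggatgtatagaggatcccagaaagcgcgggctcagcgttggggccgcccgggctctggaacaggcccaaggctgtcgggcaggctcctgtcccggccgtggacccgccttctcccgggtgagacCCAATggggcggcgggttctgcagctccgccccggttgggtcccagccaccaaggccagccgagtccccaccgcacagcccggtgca

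The column names of the count table carry a second number whose meaning is not given, either 21 or 22 in the NRK-52E columns and either 20 or 21 in the NRK-49F columns, with 2 libraries of each pH under each number. Within each number, all 21 members called in NRK-52E and all 14 called in NRK-49F had mean levels that differed in the same direction as in the full comparison. Those members were called on the same libraries, so this direction was largely fixed by their choice. Members called from 2 libraries against 2 numbered 16 and 7 in NRK-52E for numbers 21 and 22, and 15 and 5 in NRK-49F for numbers 20 and 21. Of all genes, 37.7% and 20.2% were called in these NRK-52E fits, and 35% and 14.3% in the NRK-49F fits. Signs of RNA quality in the counts were limited, since all 37 genes of the mitochondrial chromosome had 0 counts in each library. The share of counts in the 10 highest genes was 4.63 to 4.71% at pH 7.4 and 4.01 to 4.63% at pH 6.0 in NRK-52E. NRK-49F libraries had 6.2 to 6.47% at pH 7.4 and 7.38 to 8.37% at pH 6.0. Genes with a count numbered 17061 to 17384 at pH 7.4 and 16086 to 16741 at pH 6.0 in NRK-52E, and 15927 to 16570 and 15880 to 16840 in NRK-49F. Their part in the results was not tested. Of the members, 9 have a named pseudogene in RefSeq, namely Eci2, which had no match in the table, and Dlat, Dld, Cs, Idh3b, Fh, Mdh2, Mdh1 and Acadvl. The study's methods count fragments that map to several places at each of them, and the effect on these 8 was not tested.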

How the data were processed

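Poly(A)-enriched RNA was sequenced in 16 libraries. The authors made the count table, counts of fragments per gene without normalization, with featureCounts on rat genome rn6. The labels name HISAT2 2.1.0 as aligner and the study's methods another, so the aligner is uncertain. Groups were taken from the labels, and no library was left out.

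FPM came from edgeR's cpm with TMM factors. Each comparison used 8 libraries and was fitted in R 4.3.3. The fit by edgeR 4.0.16 (TMM, quasi-likelihood F test) took the genes kept by filterByExpr. Separately, the Wald test of DESeq2 1.42.0 took the genes with a count in these libraries. Calls needed a false discovery rate below 0.01 in both, with Benjamini-Hochberg adjustment. SE is the absolute log2 fold change over the square root of F. The interaction used edgeR on 16 libraries. For single members, log2(FPM + 1) was also compared by exact permutation, two-sided. The fits of the pH comparison in NRK-52E and of the interaction were run on simulated counts with known changes. These had the same dispersion for all genes and no library set apart as N8 was. They therefore give no error rate for the real libraries.

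Members and lists were chosen with earlier results of these data known, so lists have no p value. Library values are given for called members whose log2 fold change was 1 or more in size in either line or opposite in sign between lines, and for Cpt1a, Ppara, Ppargc1a, Pc, Acly and Cs. Idh2, Hadha and Hadhb were added after their values were seen. Other pathway genes named were taken from the 4 called genes of largest change per line and direction whose higher group averaged 10 FPM or more, and from a set fixed by name. Alternatives were each tool alone, a false discovery rate of 0.05, DESeq2 size factors, library totals, other filters, a joint fit, the second number of the column names, and leaving out each library. Floors are 3 counts per library. Genome position was not used beyond the promoters.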

Additional observations from a re-analysis of the deposited data

Results flagged for a closer look

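A library stood far from the other 3 of its group in 5 of the 50 groups of 4 looked at by Dixon's test at the 95% level. Chance alone marks about 1 in 20 such groups. These were Mpc2 in NRK-49F at pH 7.4, where N13 had 97.9 FPM and the others 68.1 to 70.3, and Acly in NRK-52E at pH 7.4, where N2 had 234 FPM and the others 202 to 203. Acly in NRK-49F at pH 7.4 had 194 FPM in N14 and 161 to 166 in the others. Ppara in NRK-49F at pH 6.0 had 3.5 FPM in N16 and 1.99 to 2.21 in the others, and Hadhb in NRK-52E at pH 7.4 had 112 FPM in N1 and 109 in each of the others.

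The pH effect differed between the lines, by the interaction test at a false discovery rate below 0.01, for 14 members. On the log2 scale, as NRK-52E minus NRK-49F, it was 1.11 for Mpc1, 1.32 for Mpc2, 0.67 for Pdhb, 1.85 for Pc, 0.55 for Idh3b, 1.61 for Idh1, 1.73 for Cpt1c, 0.85 for Acadm and 1.04 for Echs1. It was -0.85 for Idh3a, -0.77 for Cpt1a, -1.05 for Hadha, -0.58 for Hadhb and -0.77 for Etfdh. The cause was not tested for any of them.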

How the results depend on the processing

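Of 5500 values of single genes under alternatives, 5202 kept their side of the threshold, 190 lost a call, 105 gained one and 3 reversed. Direction was compared only for genes called in either fit. Changes of sign in genes called in neither are among the 5202. The reversals were in the comparison of lines at pH 7.4 with library totals, where Dlst was at 0.26, Acadvl at 0.02 and Hadh at 0.07. Of 364 counts, 345 stayed within 1.5 times the reported count. Called members that kept call and sign in every setting other than single second numbers were 15 of 21 in NRK-52E, 13 of 14 in NRK-49F, 13 of 14 for the interaction, 18 of 29 between lines at pH 7.4 and 19 of 24 at pH 6.0.

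With library totals NRK-52E had 10 members higher and 8 lower, the interaction had 12 more positive in NRK-49F, and at pH 7.4 14 were higher in NRK-52E and 12 in NRK-49F. With a false discovery rate of 0.05 NRK-49F had 24 called, 14 higher and 10 lower, and 52.3% of all genes called. Of 2 libraries against 2, those of number 21 gave 9 higher and 7 lower in NRK-52E, and 5244 of all genes. Those of number 22 gave 7 called there, 6 higher and 1 lower, and 2820 of all genes. In NRK-49F those of number 21 gave 5 called, 4 higher and 1 lower, and 1980 of all genes. Number 20 gave 15 called there and 4680 of all genes. Without N8, 8 members were lower in NRK-52E and 9 were more positive in NRK-49F. Beyond the wider threshold, the cause was not tested.

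Leaving out each library in turn gave 17 to 24 members called in NRK-52E (12 to 16 higher, 5 to 8 lower; 6789 to 8914 of all genes), 13 to 15 in NRK-49F (9 to 10, 4 to 6; 4125 to 4992), 13 to 18 for the interaction (8 to 10, 5 to 9; 4708 to 5973), 24 to 29 between lines at pH 7.4 (6 to 9, 17 to 20; 8562 to 9325) and 21 to 25 at pH 6.0 (7 to 10, 13 to 16; 7487 to 9263).

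The labels give groups no shared replicate numbers. With the second number of the column names as a covariate, 20 members were called in NRK-52E, 14 in NRK-49F and 15 for the interaction. Of all genes, 55%, 39.1% and 36% were then called. Dlat lost its call in NRK-52E and gained one for the interaction. Counts of 0 to 22 per library limit Ppargc1a, and 3 to 16 limit Idh2 in NRK-52E. RNA levels are not enzyme amounts or fluxes, which were not measured here. Line and culture support cannot be told apart.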
